A study of Mus musculus with 6 samples.

Results

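Complex I (NADH:ubiquinone oxidoreductase) genes were followed in the mouse heart across late gestation. The genes were the 47 of the 31529 in the deposited table whose name begins with Nduf, is not marked as a pseudogene and has a protein-coding transcript. They comprised 37 subunits encoded in the nucleus, 8 assembly factors (names beginning Ndufaf), and Ndufa4 with Ndufa4l2, which carry the name but are not counted among the subunits of complex I today. Whole hearts of wild-type (WT) mice of the outbred ICR stock were taken 16.5 days (E16.5) or 18.5 days (E18.5) into embryonic development, and each stage had 3 libraries of polyadenylated RNA. All 6 libraries shared strain, genotype and tissue, and stage was the only labelled difference. The design text calls the libraries biological replicates. The sources used here do not say whether each held 1 heart or a pool, so p-values measure the spread between these libraries.

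Complex I is the entry point of the respiratory chain for electrons from NADH. Its peripheral arm, in the matrix, holds the NADH site, a chain of iron-sulfur clusters and the quinone site, and its membrane arm pumps protons. Core subunits carry out catalysis, accessory subunits surround and stabilise them, and assembly factors help to build the complex but leave it afterwards. The proton-pumping core of the membrane arm is encoded in mitochondrial DNA, so the complex needs transcripts from both genomes. The heart turns to oxidative fuel around birth.

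Levels are given as TMM-scaled FPKM, the deposited FPKM divided by the library's TMM scaling factor, so that they compare genes per length and libraries on 1 scale. The 3 values of a stage are always given in the order of replicates 1, 2 and 3. Total counts ran from 61443414 to 77237333 per library, and every member had at least 361 counts in every library. Genes of the mitochondrial chromosome took 41.4%, 19.9% and 35.0% of all counts at E16.5 and then 33.5%, 26.7% and 25.2% at E18.5. E16.5 replicate 2 thus stood apart from its stage, and results that rest on it are given with and without it. All 7 cardiomyocyte markers were detected, from 6.43 TMM-scaled FPKM for Ryr2 to 1347 for Myh6. Their summed level was 2969 to 3055 at E16.5 and 3707 to 3984 at E18.5. Myh6, Actc1 and Tnnt2 made up most of this sum, and the stages overlapped in each of them. E16.5 replicate 2 was low for Myh6 (779, against 1412 and 1458) but high for Actc1 (1352, against 637 and 644). Of the 7 markers, 6 were higher at E18.5, with a median log2 change of 0.26. Nkx2-5 was lower (-0.40), with every E18.5 library below every E16.5 library, while 2 markers had them all above. The median was 0.10 without E16.5 replicate 2 and 0.18 without E18.5 replicate 1, with 5 of 7 higher in each. Among markers of other cell types, 5 of 5 for fibroblasts (median log2 change 0.55, summed level 138 to 260 at E16.5 and 274 to 372 at E18.5), 4 of 4 for epicardium (0.86, 22.5 to 26.6 and 41.2 to 55.4) and 3 of 4 for smooth muscle and pericytes (0.54, 164 to 206 and 237 to 275) were higher, and among these Krt19 of the epicardium passed the test (log2 change 1.23, adjusted p = 0.0219 in edgeR). Limma called 0 of the 4 epicardium markers and DESeq2 called 2. In edgeR, 0 were called when any 1 library other than E16.5 replicate 2 was left out. The fibroblast median was 1.01 without E16.5 replicate 2, and 0.38 with 3 of 5 higher without E16.5 replicate 1. Erythroid markers summed to 11033, 28694 and 18167 TMM-scaled FPKM at E16.5 and then to 10615, 20045 and 25435 at E18.5. The part of these cell types in the complex I values was not tested. In whole hearts, a change in the number of cells of a type and a change in RNA per cell cannot be told apart.

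The stretches of DNA before 4 of the genes are shown because these genes (3 subunits and 1 assembly factor) were among the 7 members with the smallest p, and because they differ in sequence. Each is the 250 bases before the RefSeq transcription start on GRCm38.p6, 5′ to 3′ on the gene's strand, with matches to the searched motifs in capitals. They lie at chr7:97399753-97400002 (Ndufc2, plus strand), chrX:20617620-20617869 (Ndufb11, minus strand), chr17:56717512-56717761 (Ndufa11, plus strand) and chr4:24897833-24898082 (Ndufaf4, plus strand).
Ndufc2: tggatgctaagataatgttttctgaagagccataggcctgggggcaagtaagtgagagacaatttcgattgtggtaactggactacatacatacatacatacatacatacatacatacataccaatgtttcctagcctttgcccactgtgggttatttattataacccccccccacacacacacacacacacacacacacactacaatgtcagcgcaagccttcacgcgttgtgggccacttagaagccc
Ndufb11: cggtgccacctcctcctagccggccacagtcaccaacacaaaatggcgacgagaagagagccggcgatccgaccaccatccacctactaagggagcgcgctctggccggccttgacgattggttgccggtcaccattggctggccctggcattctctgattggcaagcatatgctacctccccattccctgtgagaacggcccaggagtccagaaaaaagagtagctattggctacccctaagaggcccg
Ndufa11: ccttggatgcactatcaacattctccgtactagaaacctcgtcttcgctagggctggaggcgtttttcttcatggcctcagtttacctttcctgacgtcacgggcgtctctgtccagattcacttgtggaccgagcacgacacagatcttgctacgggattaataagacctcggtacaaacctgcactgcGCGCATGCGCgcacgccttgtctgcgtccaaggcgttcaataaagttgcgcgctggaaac
Ndufaf4: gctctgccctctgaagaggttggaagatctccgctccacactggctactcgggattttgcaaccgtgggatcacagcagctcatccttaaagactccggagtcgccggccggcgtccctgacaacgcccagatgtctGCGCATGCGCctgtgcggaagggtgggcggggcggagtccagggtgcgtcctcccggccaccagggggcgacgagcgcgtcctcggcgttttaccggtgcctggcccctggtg

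The capitals in Ndufa11 and Ndufaf4 are matches to the core of the NRF1 motif, which on these sequences reads on both strands with an overlap. NRF1 is a transcription factor known for acting on nuclear genes of respiration. Promoter windows (250 bases before to 50 after the start) were found for 41 of the 47 members, and 6 were not matched. On either strand, GCGCATGCG (NRF1) was in 4 of the 41 members (9.76%), against 2.61% of 17492 protein-coding genes. CCGGAAG, the core of ETS factors such as GABP, was in 14.6% of members and 12.9% of protein-coding genes. TCAAGGTCA, the site of the estrogen-related receptors, was in 0 members and 0.377% of protein-coding genes. AAGATGGC, the core of the YY1 motif, was in 8 members (19.5%), against 3.57% of protein-coding genes.

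All 8 YY1 matches lay after the transcription start and on the gene's own strand, 11 to 39 bases in, where 41.5% of the protein-coding genes with the motif had one. They are shown as 30-base stretches from GRCm38.p6, 5′ to 3′ on the gene's strand with the motif in capitals, because this place in the gene is what the 8 share. A match describes letters and is not evidence of binding. The motif itself holds the letters ATG, and whether these are the start codons of the genes was not checked.
Ndufa3: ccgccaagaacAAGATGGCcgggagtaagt
Ndufa9: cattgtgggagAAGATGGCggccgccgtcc
Ndufb8: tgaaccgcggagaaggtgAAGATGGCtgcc
Ndufc1: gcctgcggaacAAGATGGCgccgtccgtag
Ndufs4: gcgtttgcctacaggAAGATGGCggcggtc
Ndufs6: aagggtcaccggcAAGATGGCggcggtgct
Ndufs7: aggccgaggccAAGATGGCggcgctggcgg
Ndufaf8: aggcagggcccAAGATGGCggcgccctcga

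The log2 changes of these 8 genes between the stages, reported below with the rest, ran from -0.09 (Ndufa3) to 0.33 (Ndufb8), and none had an unadjusted p under 0.05. Among the 4 members with the NRF1 letters, the log2 change was 0.60 for Ndufaf4, 0.48 for Ndufa11, 0.19 for Ndufa8 and -0.01 for Ndufaf5.

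Nuclear complex I subunits stood slightly higher at E18.5 than at E16.5, but no single member passed the test over all genes. Of the 47 members, 0 were called at an adjusted p under 0.05 (edgeR quasi-likelihood, Benjamini-Hochberg over 19959 genes), where 0.15% of all genes tested were called (0.0952% higher and 0.0551% lower), and the smallest adjusted p was 0.185. DESeq2 called 1 member, Ndufc2, where it called 1.58% of all genes. Limma called 0 members on log2(FPKM + 1), where it called 0.08% of all genes, and 0 on log2(FPKM + 0.1), where it called 0.112%. At an unadjusted p under 0.05, 10 members were higher at E18.5 (4.83% of all genes) and 0 were lower (4.7%). The log2 change was above 0 in 43 of 47 members, against 49.8% of all genes. The 37 nuclear subunits had a median log2 change of 0.24, with 35 above 0, beside a median of -0.0019 over all genes tested. Between 35 and 37 subunits stayed above 0 under each other test or scaling of all 6 libraries, and 30 to 37 when any 1 library was left out. Without E16.5 replicate 2 the subunits' median was 0.40, and 4 members passed the adjusted threshold, as did 1.78% of all genes.

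As a share of the counts outside the mitochondrial chromosome, the 47 members took 0.480%, 0.587% and 0.505% at E16.5 and then 0.630%, 0.616% and 0.642% at E18.5. The stages did not overlap on this measure, and E16.5 replicate 2 was the nearest to E18.5. Of all counts the share was 0.281%, 0.470% and 0.328% at E16.5 and then 0.419%, 0.451% and 0.480% at E18.5, where E16.5 replicate 2 lay above E18.5 replicates 1 and 2. In 15 members the 3 libraries of E18.5 all lay above those of E16.5 (8.68% of all genes did so), and in 1, Ndufaf7, all lay below (7.65%). All 10 members with an unadjusted p under 0.05 were among the 15.

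**Figure D1:**
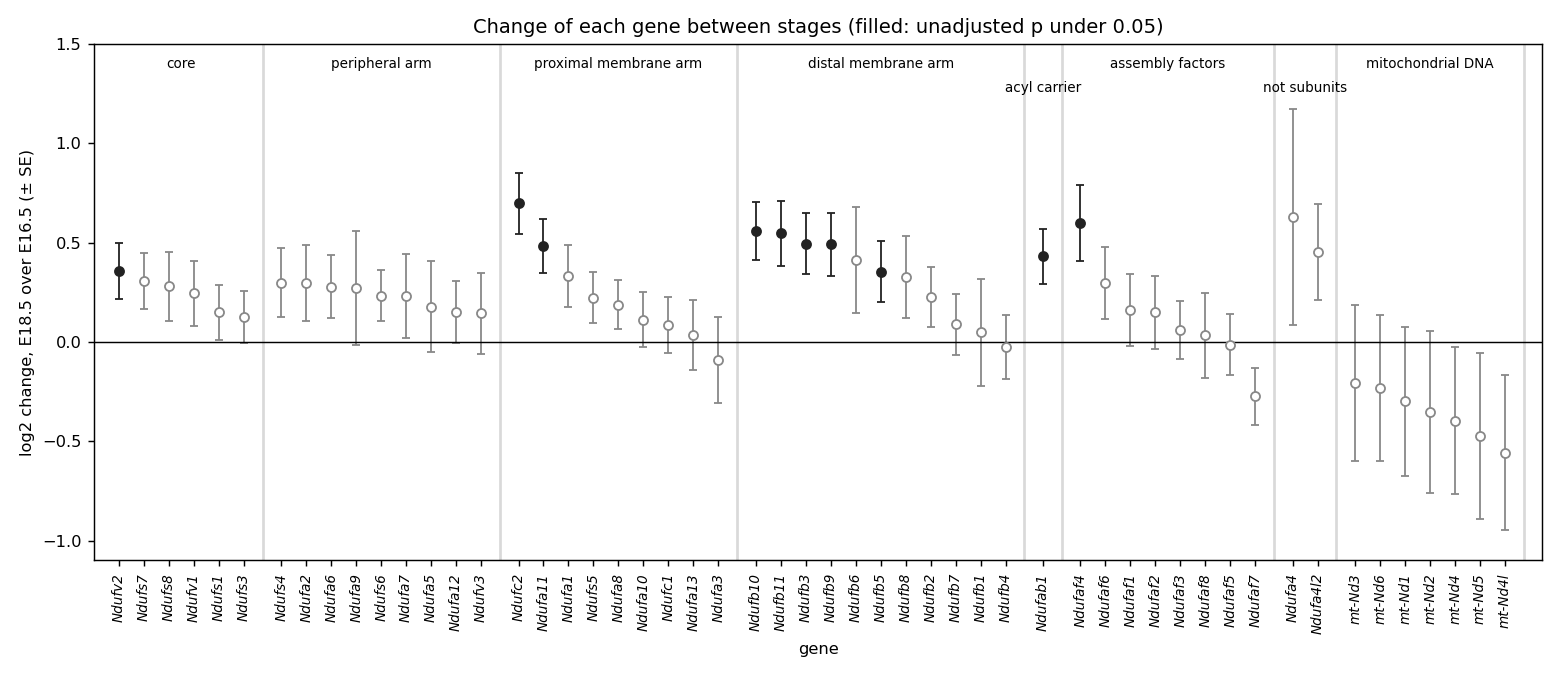
Log2 change from E16.5 to E18.5 with its standard error for 46 of the 47 members and for the 7 subunits of mitochondrial DNA, grouped by place in the complex, where filled points have an unadjusted p under 0.05. Of the 10 filled points, 7 belong to accessory subunits of the membrane arm (5 distal and 2 proximal). The subunits of mitochondrial DNA all lie below 0 with wide errors.

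Of the 20 accessory subunits of the membrane arm, 7 were higher with an unadjusted p under 0.05, as were 4.83% of all genes tested. These were 5 of 11 in the distal part and 2 of 9 in the proximal part. The count was 1 of 7 for core subunits and 0 of 9 for accessory subunits of the peripheral arm. The median log2 change was 0.35 for the distal membrane arm (11 genes), 0.19 for the proximal membrane arm (9), 0.23 for the peripheral arm accessory subunits (9) and 0.24 for the core (7). Without E16.5 replicate 2 the distal median was 0.56 and that of the peripheral accessory subunits 0.40. The distal median was 0.23 without E16.5 replicate 3, and the peripheral one 0.14 without E16.5 replicate 1. The core median was 0.16 without E18.5 replicate 1. These medians are descriptions, and the difference between the arms was not tested.

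Ndufc2, an accessory subunit of the proximal membrane arm (ENSMUSG00000030647, GRCm38 chromosome 7, 97400003 to 97407802), had the smallest p of all members. It stood at 78.7, 113 and 94.3 TMM-scaled FPKM at E16.5 and then 155, 149 and 165 at E18.5. Every E18.5 library was above every E16.5 library. The means were 95.5 ± 17.4 and 156 ± 8.20 (SD, n = 3), a log2 change of 0.70 ± 0.15 (SE), or 1.62-fold, with an unadjusted p of 0.00171 and an adjusted p of 0.185 in edgeR. Ndufc2 was called by DESeq2 (adjusted p = 0.0103), with the mitochondrial share of each library as a second term (log2 change 0.64, adjusted p = 0.0286) and without E16.5 replicate 2 (0.83, adjusted p = 0.0379). Its smallest log2 change in any of the fits was 0.57, without E16.5 replicate 1.

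Ndufa11, also of the proximal membrane arm and known to sit where complex I meets complex III in supercomplexes (ENSMUSG00000002379, GRCm38 chromosome 17, 56717767 to 56722141), was at 81.8, 105 and 92.7 TMM-scaled FPKM at E16.5 and then 137, 127 and 129 at E18.5. The stages did not overlap, with a log2 change of 0.48 ± 0.14 (adjusted p = 0.313). Ndufa1, an X-linked subunit needed for the early membrane arm, was at 57.1, 83.0 and 61.4 and then at 86.4, 86.7 and 83.0. Here E16.5 replicate 2 came level with the lowest E18.5 library (log2 change 0.33 ± 0.16, adjusted p = 0.545). Ndufa8, a twin-cysteine subunit facing the intermembrane space, had the highest mean level of all members, at 158, 163 and 150 at E16.5 and then 169, 192 and 181 at E18.5, a log2 change of 0.19 ± 0.12 (adjusted p = 0.654).

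Ndufa3 was the only nuclear subunit besides Ndufb4 (-0.02) with a log2 change below 0. Its libraries stood at 38.3, 26.3 and 41.9 at E16.5 and then 40.1, 26.9 and 33.9 at E18.5 in TMM-scaled FPKM, so the stages overlapped in full (log2 change -0.09 ± 0.22, adjusted p = 0.905). Its sign turned positive in 5 of 15 fits. The remaining proximal membrane arm genes, Ndufs5, Ndufa10, Ndufc1 and Ndufa13, had log2 changes from 0.04 to 0.22.

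In the distal membrane arm, Ndufb10, a subunit of the intermembrane space side (ENSMUSG00000040048, GRCm38 chromosome 17, 24722060 to 24724478), was at 70.6, 88.5 and 63.9 TMM-scaled FPKM at E16.5 and then 110, 110 and 111 at E18.5. The E18.5 libraries were nearly equal while those of E16.5 spread, with means of 74.3 ± 12.7 and 110.5 ± 0.215 (SD, n = 3). The log2 change was 0.56 ± 0.15, with an adjusted p of 0.278 in edgeR. Ndufb11, an X-linked single-pass subunit (ENSMUSG00000031059, GRCm38 chromosome X, 20615326 to 20617619), was at 73.9, 112 and 90.6 and then at 134, 129 and 145. All E18.5 libraries were above those of E16.5, and the log2 change was 0.55 ± 0.16 (adjusted p = 0.353). Without E16.5 replicate 2, Ndufb10 (0.69, adjusted p = 0.0383) and Ndufb11 (0.70, adjusted p = 0.0473) passed in edgeR. Ndufb11 overlaps Rbm10 on the other strand, which held 80.6% as many counts, and the sources used here do not say whether reads were counted by strand. The same holds for other members, among them Ndufb1 (with Cpsf2, 93.0% as many counts), Ndufa3 (Tfpt, 50.7%), Ndufb2 (Braf, 44%) and Ndufb5 (Mrpl47, 35.7%).

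Ndufb3, a small single-pass subunit, was at 27.0, 39.2 and 33.9 TMM-scaled FPKM at E16.5 and then 50.0, 45.0 and 47.3 at E18.5. Ndufb9, a LYR-motif subunit that holds the acyl carrier protein, was at 82.4, 92.0 and 75.6 and then at 134, 124 and 97.1. For Ndufb5 the libraries were at 14.5, 19.7 and 14.5 and then at 20.1, 20.5 and 22.1. The stages did not overlap in any of the 3, although for Ndufb5 the highest E16.5 library was close to the lowest E18.5 library. Their log2 changes were 0.49, 0.49 and 0.35, with adjusted p of 0.364, 0.383 and 0.511. The other 6 genes of this arm, Ndufb1, Ndufb2, Ndufb4, Ndufb6, Ndufb7 and Ndufb8, ran from -0.02 to 0.41.

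Ndufab1, the mitochondrial acyl carrier protein that is present in both arms and also serves mitochondrial fatty acid synthesis, was at 15.1, 17.2 and 14.0 TMM-scaled FPKM at E16.5 and then 20.2, 19.7 and 23.2 at E18.5. The stages were apart, with a log2 change of 0.43 ± 0.14 (adjusted p = 0.375). A pair of processed pseudogenes, Ndufab1-ps and Gm4459, match its transcript at 99.7% over 69.4% and 69.2% of its length. Summed with them, its log2 change was 0.43 (adjusted p = 0.363).

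**Figure D2:**
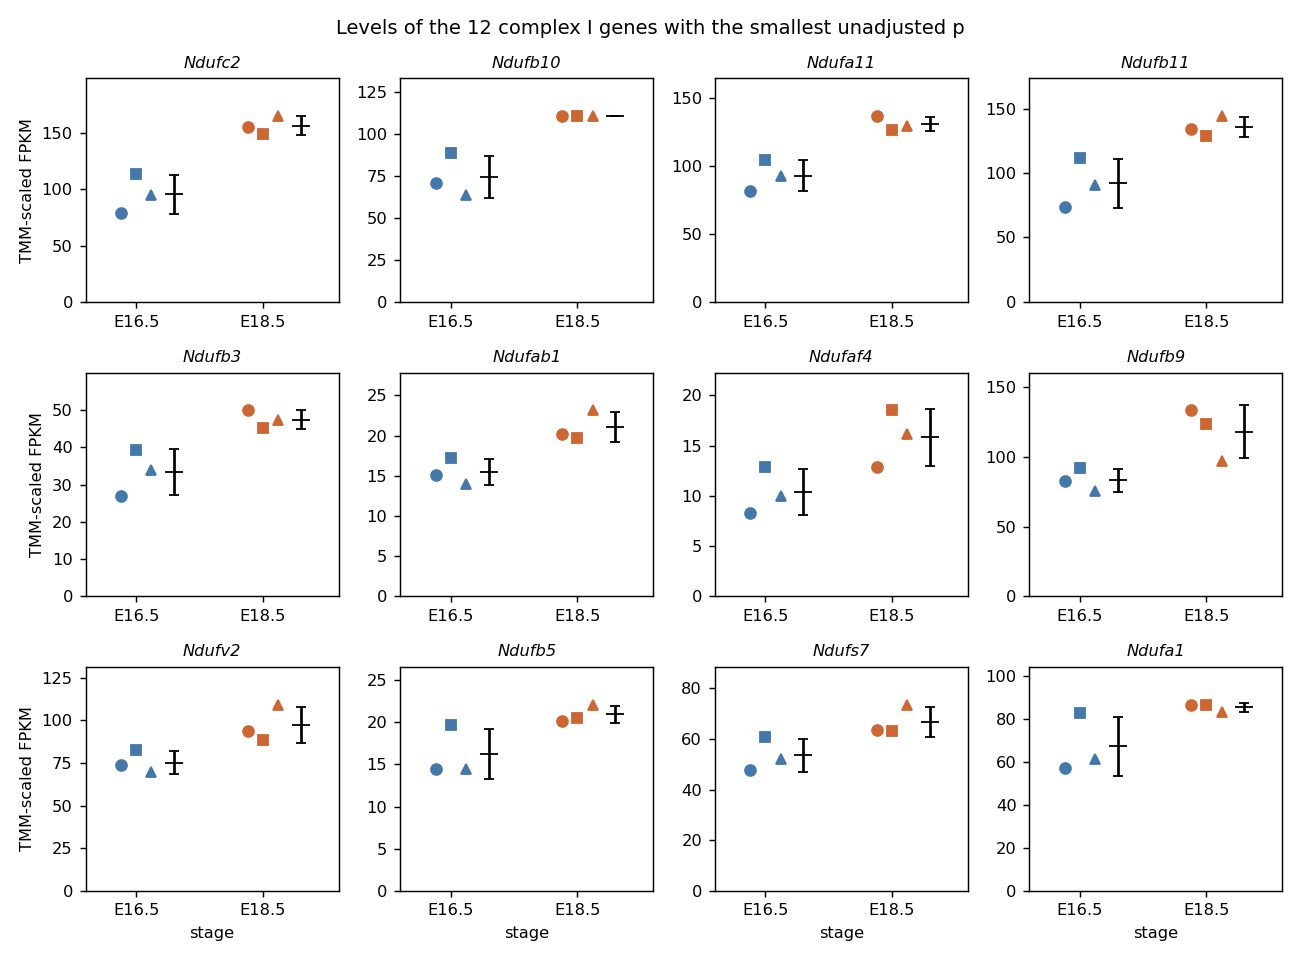
Levels in TMM-scaled FPKM of the 12 members with the smallest unadjusted p at E16.5 (blue) and E18.5 (orange), with circles, squares and triangles for replicates 1, 2 and 3 and bars for the mean ± SD of 3 libraries. In most panels the highest E16.5 point is replicate 2 (square), as in Ndufc2, where it stands at 113 beside 78.7 and 94.3.

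The 7 core subunits of the peripheral arm all had log2 changes above 0, and none passed. The 6 described here ran from 0.13 to 0.36. Of the NADH-oxidising end, Ndufv1, which binds the flavin and NADH, was at 28.2, 41.5 and 30.1 TMM-scaled FPKM at E16.5 and then 38.3, 42.2 and 38.6 at E18.5. Its E16.5 replicate 2 lay within the E18.5 range (log2 change 0.24 ± 0.16, adjusted p = 0.661). Ndufv2, its iron-sulfur partner, was at 73.6, 82.5 and 69.4 and then at 94.0, 88.6 and 109. Here the stages were apart, with a log2 change of 0.36 ± 0.14 (adjusted p = 0.476). Ndufs1, the largest subunit of the arm and a carrier of iron-sulfur clusters, was at 14.9, 13.4 and 13.3 and then at 16.3, 13.7 and 16.6, a log2 change of 0.15 ± 0.14 (adjusted p = 0.747).

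Toward the quinone site, Ndufs7, which holds the last iron-sulfur cluster of the chain, was at 47.7, 60.7 and 52.3 TMM-scaled FPKM at E16.5 and then 63.5, 63.2 and 73.7 at E18.5. The stages did not overlap (log2 change 0.31 ± 0.14, adjusted p = 0.538). Ndufs8, another iron-sulfur subunit, was at 95.5, 78.1 and 94.1 and then at 125, 88.4 and 115, where E16.5 replicate 2 was the lowest library (log2 change 0.28 ± 0.17, adjusted p = 0.631). Ndufs3, at 43.2, 47.5 and 43.0 and then 50.8, 43.5 and 53.0, differed by 0.13 ± 0.13 on the log2 scale (adjusted p = 0.779). The processed pseudogene Gm12251 matches Ndufs3 at 98.6% and held 9.41% as many counts, and the log2 change of their sum was 0.10.

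The 9 accessory subunits of the peripheral arm lay close together in their change, from 0.14 to 0.30 on the log2 scale, and Ndufs6 was the only one whose stages did not overlap. The 3 with the largest values were Ndufs4 (0.30), a subunit whose loss is known to cause Leigh syndrome, Ndufa2 (0.30) and Ndufa6 (0.28), with adjusted p from 0.612 to 0.646.

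The level of Ndufa12 is uncertain. This subunit, which takes the place of the assembly factor Ndufaf2 late in assembly (ENSMUSG00000020022, GRCm38 chromosome 10, 94198720 to 94221443), was listed at a mean of 32.4 TMM-scaled FPKM. Its processed pseudogene Ndufa12-ps (chromosome 5, 130188395 to 130188796), identical to it at 99.5% of aligned bases, was listed at 88.6, 137 and 67.7 TMM-scaled FPKM at E16.5 and then 99.7, 152 and 125 at E18.5, with 89.2% as many counts as Ndufa12. The log2 change was 0.15 ± 0.16 for Ndufa12, 0.35 ± 0.26 for the pseudogene and 0.24 ± 0.16 (adjusted p = 0.650) for their sum. Of the 46 members that could be searched, 6 had such a copy in the table, and for Ndufs5, Ndufs6 and Ndufb11 the copies held at most 2.84% as many counts. Ndufb1 had no transcript marked as protein-coding in the annotation searched, so it was left out of the search.

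**Figure D3:**
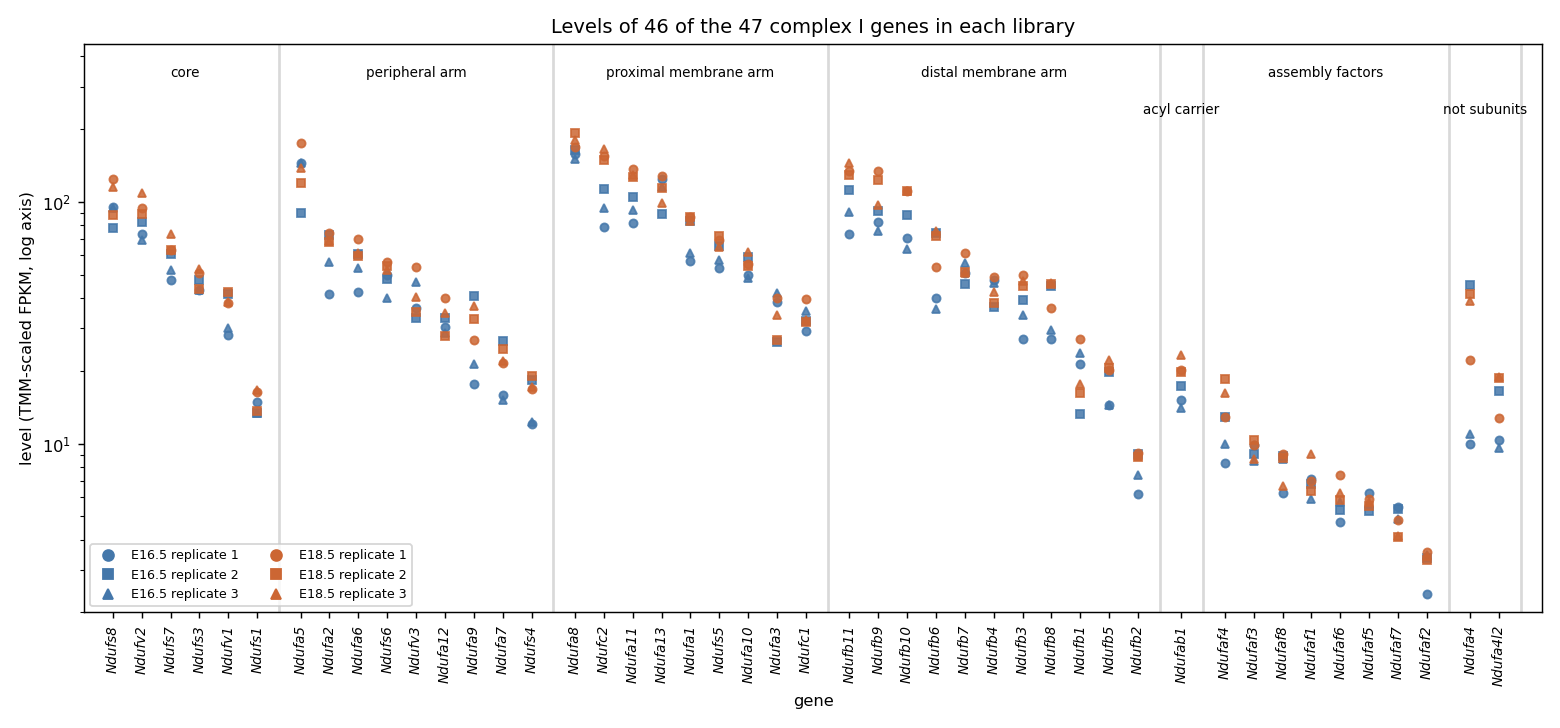
Level of 46 of the 47 members in each of the 6 libraries (TMM-scaled FPKM, log axis), ordered within each group by mean level, with colour for stage and marker shape for replicate. The 8 assembly factors lie between 3.25 and 13.1 on average, under nearly all of the subunits, and Ndufa4 shows the widest spread within E16.5.

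Although the subunits are built into the complex in fixed proportion, their transcripts differed 20.5-fold in mean TMM-scaled FPKM. This measure divides by the length taken for each gene, and those lengths were not checked. Scaled counts without that division gave another order. There Ndufb7 was the highest subunit, and Ndufb2 lay above Ndufb3, although their mean TMM-scaled FPKM were 8.25 and 40.4. The part of length in the spread was not tested, so the ranking below holds for FPKM only. Ndufa8 (169), Ndufa5 (135), Ndufc2 (126), Ndufb11 (114), Ndufa11 (112), Ndufa13 (112) and Ndufb9 (101) averaged above 100 TMM-scaled FPKM. At the other end, 6 subunits averaged under 20, of which Ndufb2 (8.25), Ndufs1 (14.7) and Ndufs4 (15.9) were the lowest. Neighbours in this order, such as Ndufa11 and Ndufa13, differed by less than their spread over libraries. The order was nearly the same everywhere: between any pair of libraries the rank correlation of the 37 levels was 0.91 to 0.99 (across genes, which share each library and are not independent replicates). Across the 37 subunits, the log2 change had a Pearson correlation of 0.29 with the log2 mean level, again a description across genes.

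Assembly factors were lower in level than subunits and closer to no change, with a median log2 change of 0.10, 6 of 8 above 0 and a median level of 6.45 TMM-scaled FPKM against 52.7 for the subunits. Ndufaf4, which acts with Ndufaf3 in early assembly of the quinone module (ENSMUSG00000028261, GRCm38 chromosome 4, 24898083 to 24905001), was the highest in both level and change. It stood at 8.34, 12.8 and 9.95 TMM-scaled FPKM at E16.5 and then 12.9, 18.5 and 16.1 at E18.5. E16.5 replicate 2 was just below the lowest E18.5 library, and the log2 change was 0.60 ± 0.19 (1.51-fold, adjusted p = 0.375). Its partner Ndufaf3 had a log2 change of 0.06 ± 0.14 (adjusted p = 0.908) and overlaps Impdh2 on the other strand, which held 221% as many counts.

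Ndufaf7, a methyltransferase of complex I assembly, was the one member with every E18.5 library below every E16.5 library, at 5.45, 5.36 and 4.85 TMM-scaled FPKM and then 4.84, 4.09 and 4.15. The gap was narrow, and the log2 change of -0.27 ± 0.14 had an adjusted p of 0.577, with a value below 0 in all 15 fits. Ndufaf6, a factor of membrane arm assembly, was at 4.73, 5.28 and 5.70 and then at 7.38, 5.82 and 6.26. Its stages were apart with a log2 change of 0.30 ± 0.18 (adjusted p = 0.627). Ndufaf2, the lowest member in mean TMM-scaled FPKM, was at 2.39, 3.35 and 3.46 and then at 3.56, 3.30 and 3.44, which overlapped (0.15 ± 0.18, adjusted p = 0.812). It overlaps Smim15 on the other strand, which held 180% as many counts.

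Of 11 other assembly factors without an Nduf name, 0 passed in edgeR, DESeq2 or limma and 0 had an unadjusted p under 0.05 in edgeR, with 6 above and 5 below 0 and a median log2 change of 0.13. Limma fitted 10 of the 11. The median was 0.02 without E16.5 replicate 1, 0.04 without E16.5 replicate 2 and 0.06 without E18.5 replicate 1. Tmem126b, a membrane protein of the MCIA assembly complex, had the smallest p of these. It was at 3.50, 2.94 and 3.41 TMM-scaled FPKM at E16.5 and then 2.53, 2.93 and 2.58 at E18.5, with no overlap and a log2 change of -0.31 ± 0.15 (adjusted p = 0.553). Foxred1, a flavin oxidoreductase needed for assembly, was at 10.8, 10.5 and 11.2 and then at 12.5, 12.6 and 12.3, also without overlap (0.19 ± 0.11, adjusted p = 0.624). Coa1 was not analysed here.

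The 7 subunits encoded in mitochondrial DNA were all listed lower at E18.5, opposite to the nuclear subunits, and 0 passed in edgeR, DESeq2 or limma or at an unadjusted p under 0.05 in edgeR (median log2 change -0.35, adjusted p from 0.675 to 0.881 in edgeR). Without E16.5 replicate 1, 3 of the 7 (mt-Nd1, mt-Nd3 and mt-Nd6) had the opposite sign. mt-Nd1, a core subunit at the junction of the arms, was at 46447, 16867 and 35147 TMM-scaled FPKM at E16.5 and then 35174, 24652 and 21154 at E18.5. The lowest and the highest library were both of E16.5. The small subunit mt-Nd3 was at 3969, 1341 and 2785 and then at 3353, 1930 and 1817, and mt-Nd4l, which had the most negative value (-0.56 ± 0.39), at 12479, 3971 and 9552 and then at 7700, 5357 and 4831. Values for mt-Nd2, mt-Nd4, mt-Nd5 and mt-Nd6 followed the same order of libraries at E16.5, with log2 changes from -0.47 to -0.23. The median was -0.02 without E16.5 replicate 1, -0.70 without E16.5 replicate 2 and 0.05 with the mitochondrial share as a term, a term to which these transcripts themselves contribute.

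Per length, mt-Nd transcripts were far above those of the nucleus, from a mean of 2533 TMM-scaled FPKM for mt-Nd3 to 29907 for mt-Nd1, against a highest nuclear mean of 169. In E16.5 replicate 2, whose mt-Nd levels were the lowest of the 6 libraries, most nuclear subunits were higher than in the other E16.5 libraries.

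**Figure D4:**
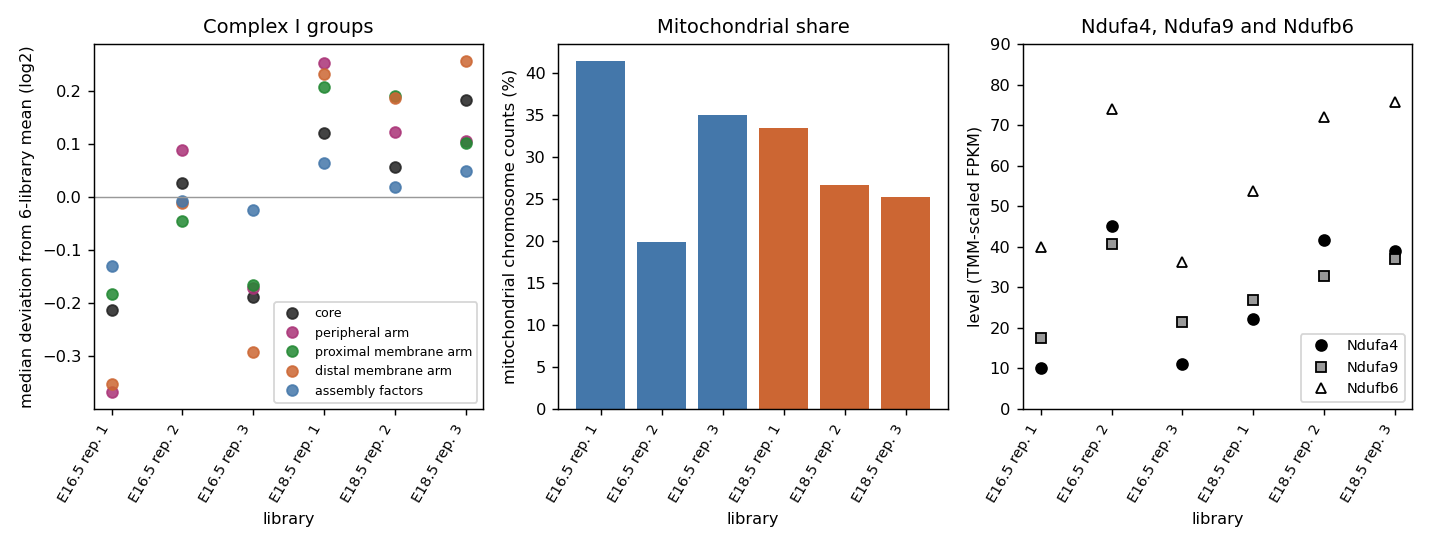
Left, median deviation of each group of complex I genes from the mean of the 6 libraries (log2); middle, percentage of counts on the mitochondrial chromosome; right, levels of Ndufa4, Ndufa9 and Ndufb6 in TMM-scaled FPKM, for each library. All 5 groups are below the mean in E16.5 replicates 1 and 3 and above it in every E18.5 library, while E16.5 replicate 2, with a mitochondrial share of 19.9%, lies near 0.

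The nuclear subunits, like most genes tested, differed among E16.5 libraries more than among E18.5 libraries. The subunits' median deviation, each from its own 6-library mean, was -0.26, -0.01 and -0.19 (log2) at E16.5 and then 0.19, 0.13 and 0.12 at E18.5. The coefficient of variation was larger at E16.5 for 26 of 37 subunits (medians of 17.8% and 8.91%), as it was for 65.5% of all genes tested. Relative to the mean of the other E16.5 libraries, E16.5 replicate 2 had a median ratio of 1.198 over the subunits and 1.004 over all genes.

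The subunits did not share 1 pattern over the libraries. E16.5 replicate 2 was above both other E16.5 libraries for 26 of 37 subunits, and for Ndufa7 and Ndufa9, among others, it was the highest of all 6. Ndufa9, which sits near the quinone site, was at 17.6, 40.6 and 21.4 TMM-scaled FPKM at E16.5 and then 26.9, 32.9 and 36.9 at E18.5, and Ndufb6 of the distal membrane arm at 39.9, 74.0 and 36.2 and then at 53.8, 72.0 and 75.6. Both were lower in E16.5 replicates 1 and 3 than in any other library. For 8 other subunits, Ndufa3, Ndufa5, Ndufa13, Ndufb1, Ndufb4, Ndufb7, Ndufs8 and Ndufv3, E16.5 replicate 2 was the lowest of the 6 libraries, and in 7 of these E18.5 replicate 1 was the highest. Ndufa5 of the peripheral arm, for instance, was at 145, 89.6 and 145 at E16.5 and then 175, 120 and 138 at E18.5, with its lowest value in E16.5 replicate 2. Over the 19959 genes tested, this library was the highest of its stage for 8101, the highest of 6 for 4001 and the lowest of 6 for 3514. The 8 of 37 subunits with their lowest value in E16.5 replicate 2 were near that last proportion. E16.5 replicate 2 was the library with the lowest mitochondrial share, and the part of that share in either pattern was not tested. The genes in these patterns were picked out after their values were seen.

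Ndufa4, now counted as a subunit of cytochrome c oxidase, was also high in E16.5 replicate 2. It was at 9.98, 45.2 and 11 TMM-scaled FPKM at E16.5 and then 22.2, 41.7 and 38.8 at E18.5. E16.5 replicate 2 was 4.30 times the mean of the other E16.5 libraries and the highest of all. With 6 libraries the log2 change was 0.63 ± 0.54 (adjusted p = 0.730), and without E16.5 replicate 2 it was 1.68 with an adjusted p of 0.0380. Its paralogue Ndufa4l2, known as a hypoxia-induced gene, was at 10.3, 16.5 and 9.59 and then at 12.8, 18.7 and 18.8. The stages overlapped through E16.5 replicate 2 (log2 change 0.45 ± 0.24, adjusted p = 0.585).

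**Figure D5:**
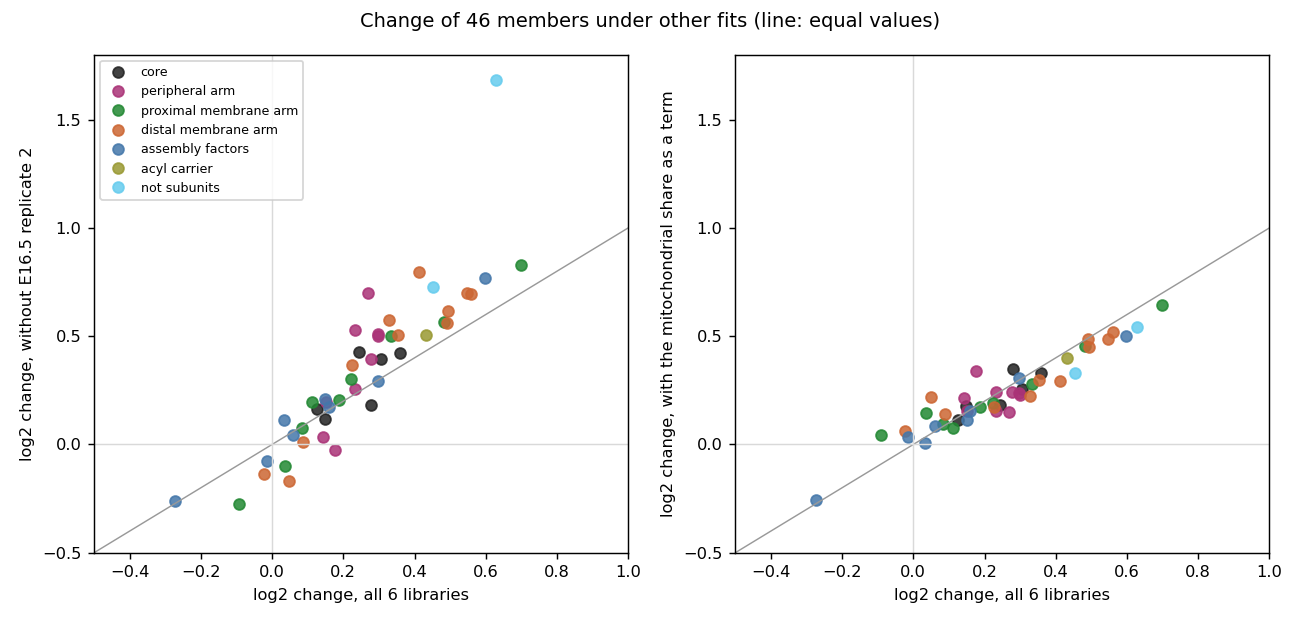
Log2 change of 46 of the 47 members with all 6 libraries (horizontal) against its value without E16.5 replicate 2 (left) and with the mitochondrial share of each library as a second term (right), coloured by group, with a line of equal values. Without E16.5 replicate 2 most subunits lie above the line and Ndufa4 reaches 1.68, and with the mitochondrial share as a term the points stay near the line, with Ndufc2 at 0.64.

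With the mitochondrial share of each library as a second term, all 37 nuclear subunits had a log2 change above 0, their median was 0.23, and 17 members were higher at an unadjusted p under 0.05, against 8.4% of all genes. Ndufc2 alone passed the adjusted threshold in that fit, where 129 genes were called higher and 55 lower (0.922% of all genes). Without E16.5 replicate 2, the 4 members called were Ndufc2, Ndufb10, Ndufb11 and Ndufa4, and 250 genes in all were called higher and 121 lower.

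Succinate dehydrogenase (complex II), another entry point to the quinone pool, served for comparison. Its 4 subunits all had log2 changes above 0 (median 0.37), 0 passed in edgeR, DESeq2 or limma, and 1, Sdhb, had an unadjusted p under 0.05 in edgeR. The median was 0.75 without E16.5 replicate 2, 0.19 without E16.5 replicate 1 and 0.22 without E16.5 replicate 3. Sdhb, the iron-sulfur subunit, was at 65.9, 73.4 and 68.3 TMM-scaled FPKM at E16.5 and then 88.4, 90.03 and 103 at E18.5, with no overlap (0.42 ± 0.13, adjusted p = 0.359). Among 7 regulators of nuclear respiratory genes, 0 passed in any of these tools, 0 had an unadjusted p under 0.05 and 0 had stages that did not overlap. Their log2 changes were -0.13 for Nrf1, -0.15 for Gabpa, 0.02 for Yy1, 0.18 for Esrra, 0.10 for Ppargc1a, -0.23 for Ppargc1b and 0.10 for Tfam.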

How the data were processed

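Hearts at E16.5 and E18.5 were sequenced as strand-marked poly(A) libraries, per the labels' protocols. The authors deposited estimated counts, written as whole numbers, and FPKM values for 31529 genes. The tools in the submitters' processing notes are StringTie 1.3.4d, HISAT2 2.0.4, cutadapt 1.9 and UMI-tools, and the build named there is mm9, with no roles given. Removal of duplicates by molecular identifier, and strand use in counting, are not given in the sources used here. Estimated counts can divide reads between near-identical genes.

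The test of E18.5 against E16.5 was that of edgeR 4.0.16, under R 4.3.3 (filterByExpr, TMM, quasi-likelihood, two-sided, stage as the only term), with Benjamini-Hochberg adjustment over 19959 genes. All 47 members passed the filter. SE is the absolute log2 change over the square root of F. On simulated counts (19609 genes after filtering), this test recovered 12% of changes of log2 size 1 and 82% of size 2. Every simulated gene had the same preset dispersion, which was not fitted to these data. These shares therefore do not say how often such a change in a complex I gene would be called. Alternatives were DESeq2 1.42.0, RLE scaling, scaling without mitochondrial chromosome genes, no low-count filter, limma 3.58.1 on log2(FPKM + 1) and log2(FPKM + 0.1), the mitochondrial share as a term, a replicate block, and each library left out. Summing members with their copies was chosen after seeing the data.

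Copies were GENCODE M21 transcripts matching a member's at 95% identity or more over at least 50% of its length (blastn). Positions came from GENCODE M21 by Ensembl identifier, promoters from RefSeq (GRCm38.p6). The deposited coordinates were used only to find overlapping genes.

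Members and gene lists were chosen with earlier results of these data known. Values in every library were to be given for members past the threshold, the 12 with the smallest p, the 7 nuclear core subunits, Ndufa4, Ndufa4l2, the 3 assembly factors with the smallest p, the highest and lowest member, the 2 with the largest fall and the mt-Nd genes. Ndufb1 was added to the distal arm after the table was read. Other genes given by library were chosen after their values were seen. The values of 1 core subunit are not reported here. Markers of skeletal muscle (3 genes, median log2 change 0.24), liver (3, -0.49), lung (3, -0.10), macrophages (4, -0.16), endothelium (5, 0.17) and erythroid cells (5, 0.45, or 0.12 to 1.12 with 1 library left out) were also read.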

Additional observations from a re-analysis of the deposited data

How the results depend on the processing

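Under the other tests and scalings of all 6 libraries, the median log2 change of the nuclear subunits ran from 0.23 to 0.38. The value of 0.36 (limma, pseudocount 1) and 0.38 (pseudocount 0.1) came on unscaled FPKM, where the median of all genes was 0.09 and 0.12, which leaves 0.27 and 0.25. Assembly factors were at 0.17 and 0.21 there, 3 members passed an unadjusted p of 0.05 in each, and genes called higher and lower over all were 5 and 5, and 8 and 6. DESeq2 called 204 higher and 139 lower, with 1 member, Ndufc2. The mitochondrial share as a term gave 129 and 55, with 1 member called, 17 at an unadjusted p under 0.05, and turned the median of mt-Nd genes to 0.046, with mt-Nd5 at 0.0064, mt-Nd2 at 0.046, mt-Nd1 at 0.055, mt-Nd6 at 0.15, mt-Nd3 at 0.17 and Ndufa3 at 0.043. Ndufa3 was at 0.025 and 0.026 in the limma fits. The cause of these shifts was not tested.

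Leaving out 1 library each, genes called ran from 6 to 250 higher and 2 to 121 lower, members called from 0 to 4, members at an unadjusted p under 0.05 from 6 to 25 higher and 0 to 1 lower, members above 0 from 37 to 45, and the medians from 0.19 to 0.40 for subunits, 0.07 to 0.14 for assembly factors and -0.70 to -0.02 for mt-Nd genes. The most genes and members called, and the most members higher at an unadjusted p under 0.05, came without E16.5 replicate 2. Without any one of the other libraries, 6 to 11 genes were called higher, 2 to 6 lower, and 0 members. Of the planned genes reported here, signs turned for mt-Nd1 (-0.62 to 0.033), mt-Nd6 (-0.56 to 0.12) and mt-Nd3 (-0.56 to 0.18). Ndufaf2 (-0.0064 to 0.24) turned as well, and in all of these the turned value came without E16.5 replicate 1. Ndufa3 (-0.27 to 0.047) was above 0 without E16.5 replicate 3 and without E18.5 replicate 2. Other members turned too, among them Ndufb1 (-0.23 without E18.5 replicate 1), Ndufaf8 (-0.12 without E16.5 replicate 1) and Ndufa13 (-0.10 without E16.5 replicate 2).

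Replicate numbers are shared between stages, but no label says that they mark a pairing. Deviations of same-numbered libraries correlated at 0.24, 0.33 and -0.08, and E18.5 replicates 1 and 3 correlated best with another number. With the replicate block, 30 genes were called higher and 13 lower, with 0 members called and 15 at an unadjusted p under 0.05.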
